A study of Solanum lycopersicum with 18 samples.

Results

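The genes described here are 10 tomato (Solanum lycopersicum) gene models that are described as enzymes of flavonoid synthesis but are not the copies on the main route to anthocyanin pigment. They were chosen by identifier, and all 10 were found among the 5295 features of the authors' deposited table. Per its name, the table is limited to features that passed a false discovery rate of 0.05 and a 2-fold difference in at least 1 comparison. Each paralogue therefore had to differ at least 2-fold somewhere, and copies of these enzymes outside the selection were not analysed here. The plants carried the snapdragon genes Rosea1, which encodes a MYB factor, and Delila, which encodes a bHLH factor. Both switch on anthocyanin synthesis and were placed under a system induced by the glucocorticoid dexamethasone (DEX). The data come from 18 libraries of messenger RNA, 3 in each of 6 groups. The groups were roots 24 h after DEX, roots 3 h after DEX and uninduced roots, and callus, which is undifferentiated tissue in culture, 24 h after DEX, 3 h after DEX and uninduced. DEX was given at 10 mg/L. All groups are labelled as the same inducible system and none as DEX without the transgenes, so an effect of DEX or handling and an effect of the regulators cannot be told apart.

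The values are fold changes of induced over uninduced samples of the same tissue, 1 per gene and comparison. The headers do not name the denominator, which was read as the uninduced group because both transgenes stood far above 1 in all 4 comparisons. Values per library, levels and p-values per comparison were not analysed here, so the spread between replicates is unknown, no difference below carries a test, and the labelled tissues could not be checked against marker levels. Both times of a tissue share its uninduced samples. In this text higher and lower mean any fold above or below 1, and a gene is counted only at 2-fold or more. The median log2 fold over all features was -0.13 in roots at 24 h and -0.58 in roots at 3 h, and 0 in callus at both times. In bulk tissue, fewer cells of a type and less RNA per cell cannot be told apart.

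As background, flavonoid synthesis starts when chalcone synthase joins coumaroyl-CoA and malonyl-CoA to a chalcone, which chalcone isomerase closes to a flavanone. Flavanone 3-hydroxylase turns this into a dihydroflavonol, from which flavonol synthase makes flavonols, while dihydroflavonol reductase and anthocyanidin synthase lead on to anthocyanins. Flavanone 3-hydroxylase, flavonol synthase and anthocyanidin synthase all belong to the oxygenases that need oxoglutarate and iron. That family is large in plants and also makes or breaks down hormones such as gibberellin. A description by sequence similarity does not fix which reaction a member carries out. Dihydroflavonol reductase likewise shares its NAD(P)-binding fold with many other reductases.

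Of the 10 paralogues, 6 carry the oxygenase domain of that family in their description and Solyc10g076670 carries no domain. The sequence match behind each description comes from another plant: morning glory for the chalcone synthase Solyc05g053170, maize for the chalcone isomerase Solyc08g061480 and for Solyc09g066310, petunia for Solyc06g073080 and Arabidopsis for Solyc03g080190. The dihydroflavonol reductase Solyc04g015590 was matched to potato. Of the 4 described as anthocyanidin synthases, Solyc10g076660 and Solyc10g076670 were matched to the same cotton protein, Solyc10g085190 to an apple protein and Solyc08g006770 to a fragment from carnation. By the number in their identifiers the 10 lie on 7 chromosomes. No genome coordinates are printed, since no source used here names the build.

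Roots 3 h after DEX were where most of these paralogues stood away from the uninduced level. There 6 of the 10 were at least 2-fold higher, among 31.3% of all features, and 2 were at least 2-fold lower, among 44.6%. Together that is 8 of 10 beside 75.8% of all features past 2-fold either way, so the share past 2-fold was near that of the table. Solyc08g061480, Solyc03g080190 and Solyc10g076670 were past 2-fold here alone, on the higher side. They could therefore enter the table only through this comparison, so the number higher is not independent of the selection. The direction of the set was not tested. The median log2 fold of the 10 was 1.96, against -0.58 over all features. With the column centred on its median, 6 were higher, beside 38.4% of all features, and 1 was lower, beside 25.4%. The root 3 h comparison held the largest fold of 7 of the 10, and of 52.1% of all features.

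The other comparisons held fewer. In roots at 24 h 2 of the 10 were at least 2-fold higher, beside 11.7% of all features, and 1 was lower, beside 21.9%. In callus at 24 h 2 were higher, beside 18%, and 1 was lower, beside 21.5%. In callus at 3 h 1 was higher, beside 27.8%, and 3 were lower, beside 23.4%. Each of these counts differs by fewer than 2 genes from what its background share gives for 10 genes. Solyc09g066310 and Solyc08g006770 were past 2-fold in callus at 3 h alone, so they could enter the table only through that fold. The median log2 fold of the paralogues was 0.12 in roots at 24 h, -0.01 in callus at 24 h and -0.30 in callus at 3 h.

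**Figure D1:**
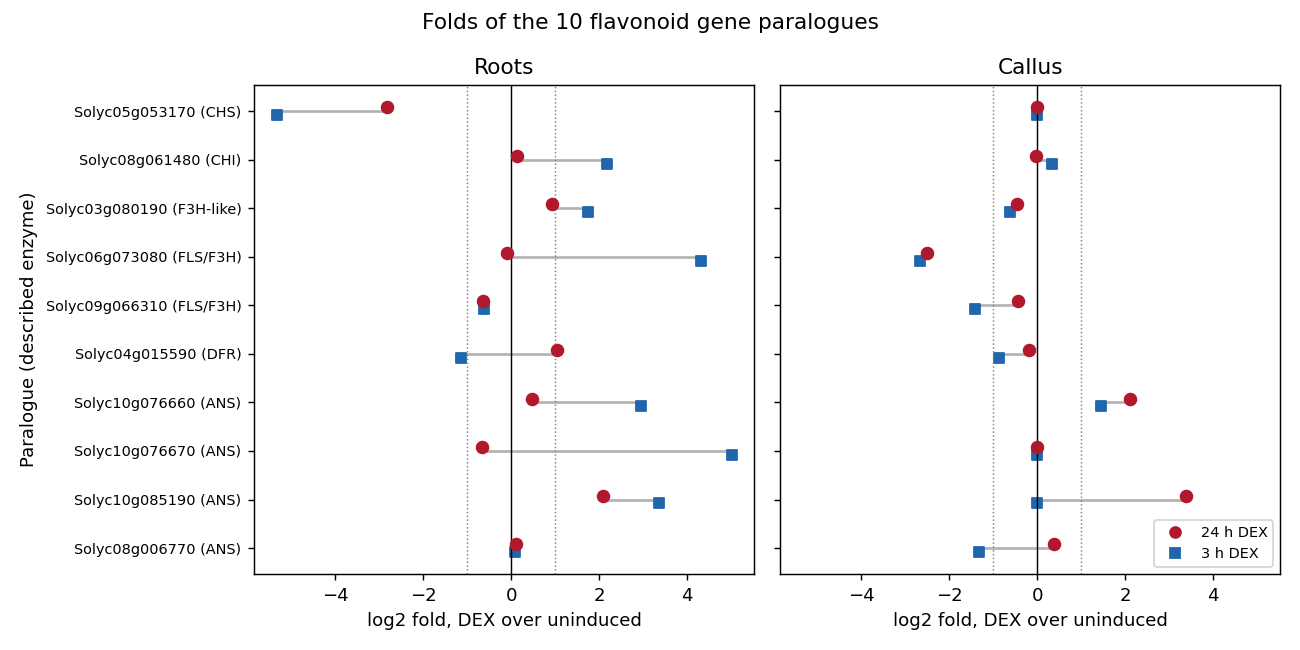
Log2 fold of DEX over uninduced samples for each of the 10 paralogues, with roots on the left and callus on the right; circles are 24 h, squares are 3 h, a grey line joins them and dotted lines mark 2-fold. Root squares reach from -5.32 to 5.01, while root circles lie between -2.82 and 2.08.

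At the chalcone synthase step, the paralogue Solyc05g053170 stood below the uninduced level in roots at both times. In the authors' deposited table it was 7.06-fold lower in roots at 24 h and 39.9-fold lower at 3 h, and it was listed at exactly 1 in callus at both times. At root 3 h 0.472% of all features had a lower fold, and at root 24 h 3.42%. A fold of exactly 1 at both callus times was shared with 300 features in all, or 5.67% of the table, and the reads behind such a fold are unknown. The main chalcone synthases went the other way in roots. CHS1 (Solyc09g091510) stood 5701-fold higher at 24 h and 443-fold higher at 3 h, and CHS2 (Solyc05g053550) 7271-fold and 2661-fold higher at the same times, in the authors' deposited table. The described enzyme was thus the same and the root folds lay on opposite sides of 1.

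The chalcone isomerase paralogue Solyc08g061480 was past 2-fold in roots at 3 h alone. Its fold in the authors' deposited table was 1.09 in roots at 24 h and 4.52 in roots at 3 h, and in callus it was 1.02-fold lower at 24 h and 1.25-fold higher at 3 h. At root 3 h 9.27% of all features had a higher fold. The main isomerase CHI (Solyc05g010320) had a smaller fold than the paralogue in roots at 3 h, 3.31, and a larger one in the other comparisons, with 8.93 in roots at 24 h, 8.61 in callus at 24 h and 2.82 in callus at 3 h, in the authors' deposited table. The chalcone isomerase-like gene CHIL (Solyc05g052240), a non-catalytic helper of chalcone synthase, stood at 636-fold and 308-fold in roots at 24 h and 3 h in the authors' deposited table.

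Among the flavanone 3-hydroxylase and flavonol synthase paralogues, Solyc06g073080 had the widest swing of all 10. The authors' deposited table listed it at 1.07-fold lower in roots at 24 h, 19.8-fold higher in roots at 3 h, 5.64-fold lower in callus at 24 h and 6.34-fold lower in callus at 3 h. Its root 3 h fold was exceeded by 1.68% of all features, and 3.14% of all features had a lower fold in callus at 3 h. It was the 1 paralogue past 2-fold in opposite directions in the 2 tissues at 3 h. Among all features, 81 were at least 2-fold higher in roots and at least 2-fold lower in callus at that time. Between its highest and lowest fold lay a factor of 125.

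Solyc03g080190, described as flavanone 3-hydroxylase-like, had smaller folds, above 1 in roots and below 1 in callus at both times. It was 1.90-fold higher in roots at 24 h and 3.37-fold higher at 3 h, against 1.38-fold lower and 1.52-fold lower in callus at these times, in the authors' deposited table. Its Arabidopsis match is DMR6, an oxygenase that in Arabidopsis hydroxylates salicylic acid, a defence hormone. Under centring of each column its root 24 h fold came to 2.08, past the limit, which made 3 of the 10 paralogues higher there, beside 14.1% of all features under the same centring. Solyc09g066310 was lower in all comparisons and past 2-fold in callus at 3 h alone, with 1.57-fold lower in roots at 24 h, 1.54-fold lower in roots at 3 h, 1.36-fold lower in callus at 24 h and 2.66-fold lower in callus at 3 h in the authors' deposited table. The main flavanone 3-hydroxylase F3H (Solyc02g083860) stood at 246-fold and 179-fold in roots at 24 h and 3 h, and at 17.8-fold and 13.3-fold in callus, in the authors' deposited table. None of the 3 paralogues described as flavanone 3-hydroxylase-like or as flavonol synthase was near F3H in the same comparison.

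A further feature, Solyc06g083910, is also described as a flavonol synthase and is not among the 10. It was chosen after its values were seen, as it meets the description and is no main copy. The authors' deposited table gave it 2.39-fold lower in roots at 24 h, 5.51-fold lower in roots at 3 h and exactly 1 in callus at both times. Counted with the others, it would make 2 of 11 paralogues lower in roots at 24 h, beside 21.9% of all features, and 3 of 11 lower at 3 h, beside 44.6%.

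The dihydroflavonol reductase paralogue Solyc04g015590 was the 1 member past 2-fold on opposite sides in the same tissue, higher at 24 h and lower at 3 h in roots. In roots it was 2.06-fold higher at 24 h and 2.22-fold lower at 3 h, and in callus 1.14-fold lower and 1.83-fold lower at these times, in the authors' deposited table. Both root folds lie just past the 2-fold limit. Centring the root 3 h column brought that fold to 1.48-fold lower, under the limit. The main reductase DFR (Solyc02g085020) stood 5443-fold higher in roots at 24 h and 4811-fold higher at 3 h, and 19492-fold and 14651-fold higher in callus, in the authors' deposited table.

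Of the 4 paralogues described as anthocyanidin synthases, 3 were at least 4-fold higher in roots at 3 h, beside 11.4% of all features. Solyc10g076670 led all 10 there, at 32.2-fold higher, and was 1.59-fold lower in roots at 24 h and at exactly 1 in callus at both times in the authors' deposited table. At root 3 h 1.02% of all features had a higher fold. Solyc10g076670 could enter the table only through that fold, so the count of 3 is not independent of the selection. Solyc10g076660 had folds of 1.38 in roots at 24 h, 7.78 in roots at 3 h, 4.27 in callus at 24 h and 2.74 in callus at 3 h in the authors' deposited table. It was the 1 paralogue past 2-fold in callus at 3 h on the higher side. Solyc10g085190 had folds of 4.24 in roots at 24 h, 10.3 in roots at 3 h, 10.4 in callus at 24 h and exactly 1 in callus at 3 h in the authors' deposited table. Its callus 24 h fold was exceeded by 1.70% of all features.

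The fourth, Solyc08g006770, was close to level except in callus at 3 h, where it was 2.52-fold lower. Elsewhere it was 1.09-fold higher in roots at 24 h, 1.06-fold higher in roots at 3 h and 1.30-fold higher in callus at 24 h in the authors' deposited table. The main anthocyanidin synthase ANS (Solyc08g080040) had nearly the same fold in 3 of the 4 comparisons, with 232 and 253 in roots at 24 h and 3 h and 245 in callus at 24 h, and 145 in callus at 3 h, in the authors' deposited table. The 4 paralogues thus shared a description and differed widely from ANS and from each other.

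Solyc10g076660 and Solyc10g076670 carry consecutive identifiers, 10 apart, which stand for adjacent gene models in the annotation's numbering. The next identifier, Solyc10g076680, is also in the table, with the oxygenase domain that Solyc10g076660 carries and a description as 1-aminocyclopropane-1-carboxylate oxidase, the enzyme that releases ethylene. Its folds in the authors' deposited table were close to those of Solyc10g076670, at 1.03-fold lower in roots at 24 h, 27.8-fold higher in roots at 3 h and exactly 1 in callus at both times. The gene on the other side, Solyc10g076650, described as a Ulp1 protease family protein, stood 2.03-fold and 3.64-fold higher in roots at 24 h and 3 h in the authors' deposited table. In callus it was 1.51-fold higher at 24 h and 1.25-fold lower at 3 h. This run was looked up after the values had been seen. How the authors' counting treated reads that fit more than 1 of these genes is unknown from the sources used here, so the separate folds of such copies are uncertain.

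**Figure D2:**
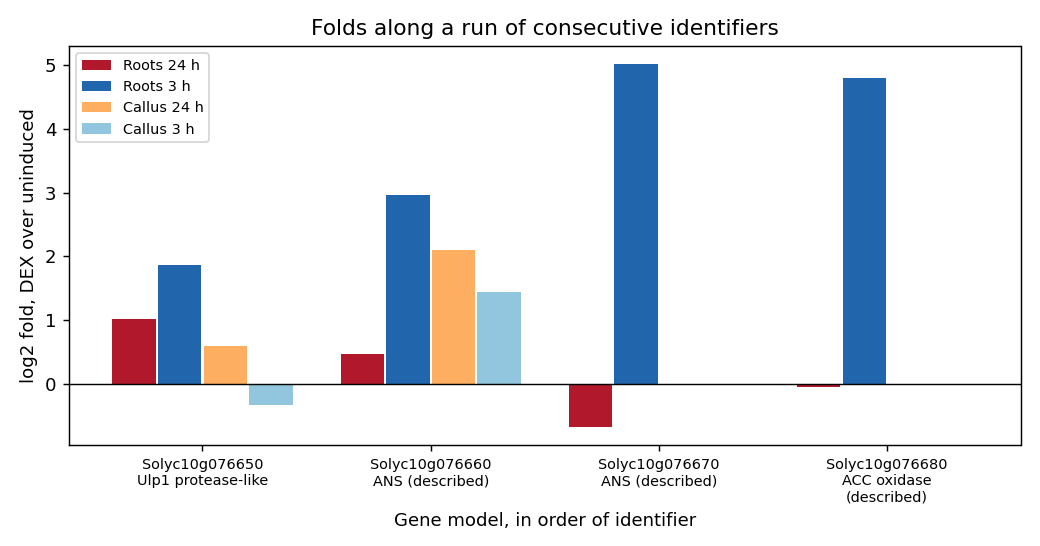
Log2 fold of DEX over uninduced samples for 4 gene models with consecutive identifiers, with bars for roots at 24 h and 3 h and callus at 24 h and 3 h from left to right; an absent bar is a fold of exactly 1. The 3 genes described as oxygenases, Solyc10g076660, Solyc10g076670 and Solyc10g076680, stand at 7.78-fold, 32.2-fold and 27.8-fold higher in roots at 3 h and between 1.59-fold lower and 1.38-fold higher at 24 h.

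Neighbours of other paralogues had other folds. Next to Solyc09g066310 lies Solyc09g066320, also described as a 1-aminocyclopropane-1-carboxylate oxidase, which was 1.69-fold lower and 12-fold lower in roots at 24 h and 3 h, and 2.37-fold and 4.05-fold lower in callus, in the authors' deposited table. Both genes of that pair were thus below the uninduced level in every comparison, and by more for Solyc09g066320. Next to Solyc03g080190, the O-methyltransferase Solyc03g080180 was 1.83-fold and 2.80-fold lower in roots at 24 h and 3 h, and 3.31-fold and 1.60-fold lower in callus, in the authors' deposited table. It was thus lower in both tissues, while the paralogue was lower in callus and higher in roots. Neighbours of Solyc08g061480, Solyc04g015590, Solyc10g085190 and Solyc08g006770 are also among the features and are not described here.

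The 2 DEX times of a tissue can be set against each other, because the shared uninduced samples cancel when the 24 h fold is divided by the 3 h fold. No uninduced group is labelled with a time, so induction and the passing of time cannot be told apart in this ratio. In roots 5 of the 10 paralogues were at least 2-fold lower at 24 h than at 3 h, beside 23% of all features, and 2 were at least 2-fold higher, beside 26%. The median ratio was 0.481, against 1.04 over all features. Solyc10g076670 had the largest drop, 51.1-fold lower at 24 h than at 3 h, followed by Solyc06g073080 at 21.2-fold, Solyc10g076660 at 5.62-fold, Solyc08g061480 at 4.14-fold and Solyc10g085190 at 2.44-fold lower, all from the authors' deposited table. All 5 were among those at least 2-fold higher at 3 h, the fold by which the ratio divides, so this is no separate result. Solyc10g076670 and Solyc08g061480 could enter the table only through that fold, so their drop is not independent of the selection. The 2 that were higher at 24 h than at 3 h were Solyc05g053170 at 5.65-fold and Solyc04g015590 at 4.57-fold, both of which had been below the uninduced level at 3 h. With each column centred, 6 paralogues were lower at 24 h, beside 35.3% of all features, and 2 higher, beside 16.7%.

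The main copies had another course in roots. Of the 10 on the list, 8 are in the table and so passed its selection. At least 2-fold higher at 24 h than at 3 h were 5 of these, beside 26% of all features. At least 2-fold lower were 0, beside 23%. Their root ratios of 24 h over 3 h ran from 0.917 for ANS to 18.9 for F3'5'H (Solyc11g066580), the flavonoid 3',5'-hydroxylase, a cytochrome P450 that steers the pathway to delphinidin-type pigments. The paralogues' root ratios ran from 0.0196 to 5.65. No test of this difference could be made.

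In callus fewer paralogues were past 2-fold between the times: 2 were at least 2-fold higher at 24 h than at 3 h, beside 15% of all features, while 0 were at least 2-fold lower, beside 19.8%. These were Solyc10g085190 at 10.4-fold and Solyc08g006770 at 3.28-fold higher, from the authors' deposited table. The callus 3 h fold of Solyc10g085190 was exactly 1, so its ratio is its callus 24 h fold. Solyc08g006770 could enter the table only through its lower callus 3 h fold, by which the ratio divides. Its ratio is therefore not independent of the selection. The remaining ratios lay between 0.784 and 1.96. Solyc06g073080, with its 21.2-fold drop in roots, had a callus ratio of 1.12.

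**Figure D3:**
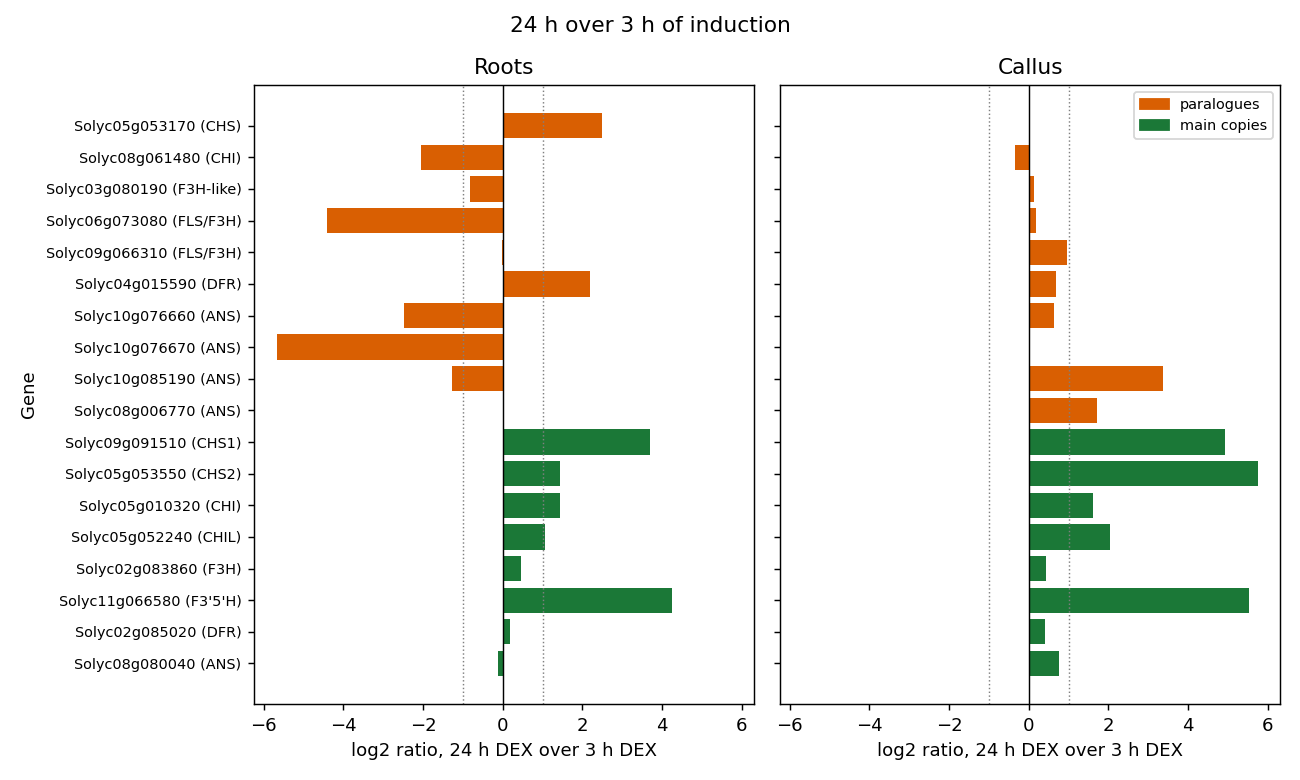
Log2 ratio of 24 h DEX over 3 h DEX for the 10 paralogues (orange) and the 8 main copies (green), with roots on the left and callus on the right; dotted lines mark 2-fold. In roots 5 orange bars reach past 2-fold to the left and no green bar does, beside 23% of all features. Root ratios run from 0.0196 to 5.65 for the paralogues and from 0.917 to 18.9 for the main copies. Among the 5, Solyc10g076670 and Solyc08g061480 could enter the table only through their root 3 h fold.

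Each tissue has its own uninduced samples, and the folds of the 2 tissues were set against each other at both times. At 3 h the root fold was at least 2 times the callus fold for 7 of the 10 paralogues, beside 19.1% of all features, and at least 2 times smaller for 1, beside 33.8%. That 1 was Solyc05g053170, whose callus fold was exactly 1. Among the 7 were Solyc08g061480, Solyc03g080190 and Solyc10g076670, which could enter the table only through their root 3 h fold. Solyc08g006770, at a ratio of 2.68, was also among the 7. It could enter only through its lower callus 3 h fold, by which the ratio divides. The number higher is therefore not independent of the selection. The largest root over callus ratios at 3 h were 125 for Solyc06g073080, 32.2 for Solyc10g076670 and 10.3 for Solyc10g085190, and the callus fold of both anthocyanidin synthase paralogues was exactly 1. Without the members listed at exactly 1 in callus at either time, 5 of the remaining 7 were higher in roots and 0 lower. Solyc08g061480, Solyc03g080190 and Solyc08g006770 are among these 5, so the same limit holds.

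At 24 h the root fold was at least 2 times the callus fold for 3, beside 12.5% of all features, and at least 2 times smaller for 3, beside 18.2%. The higher ones were Solyc06g073080 at a ratio of 5.27, Solyc03g080190 at 2.62 and Solyc04g015590 at 2.34. The lower ones were Solyc05g053170 at 0.142, Solyc10g076660 at 0.324 and Solyc10g085190 at 0.407. Without the members listed at exactly 1 in callus at either time, 3 of the remaining 7 were higher in roots and 1 lower. Differences between the tissues could not be tested.

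The median fold of the paralogues lay far below that of the main copies in every comparison, with some overlap of single genes. The 2 sets overlapped in roots at 3 h and in callus at both times, where CHI or CHS2 had the lowest main-copy fold, and did not overlap in roots at 24 h. The median log2 fold was 0.12 for the paralogues and 10.86 for the main copies in roots at 24 h, and 1.96 and 8.53 in roots at 3 h. In callus it was -0.01 for the paralogues and 6.85 for the main copies at 24 h, and -0.30 and 4.12 at 3 h. Main copies at least 2-fold higher numbered 8 of 8 in roots at 24 h, beside 11.7% of all features, and 8 in roots at 3 h, beside 31.3%. In callus they numbered 8 at 24 h, beside 18%, and 7 at 3 h, beside 27.8%. At least 2-fold lower were 0 in any comparison, beside 21.9% and 44.6% of all features in roots at 24 h and 3 h. In callus these shares were 21.5% and 23.4%. Each of the 8 had to differ at least 2-fold somewhere to be in the table, so these counts are not independent of the selection. No test over samples could be made of the difference between the 2 sets. Both lists were chosen with earlier results of these data known, so this difference is not independent of the choice. The largest fold of any paralogue, in either direction, was the 39.9-fold lower value of Solyc05g053170. F3'5'H had the largest fold among the main copies at 24 h, with 32913 in roots and 25315 in callus in the authors' deposited table. The remaining main copies, the flavonoid 3'-hydroxylase Solyc03g115220 and the flavonol synthase Solyc11g013110, were not analysed here. A fold depends on the uninduced level, which is unknown, so neither the paralogues nor the main copies are ranked by expression here.

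**Figure D4:**
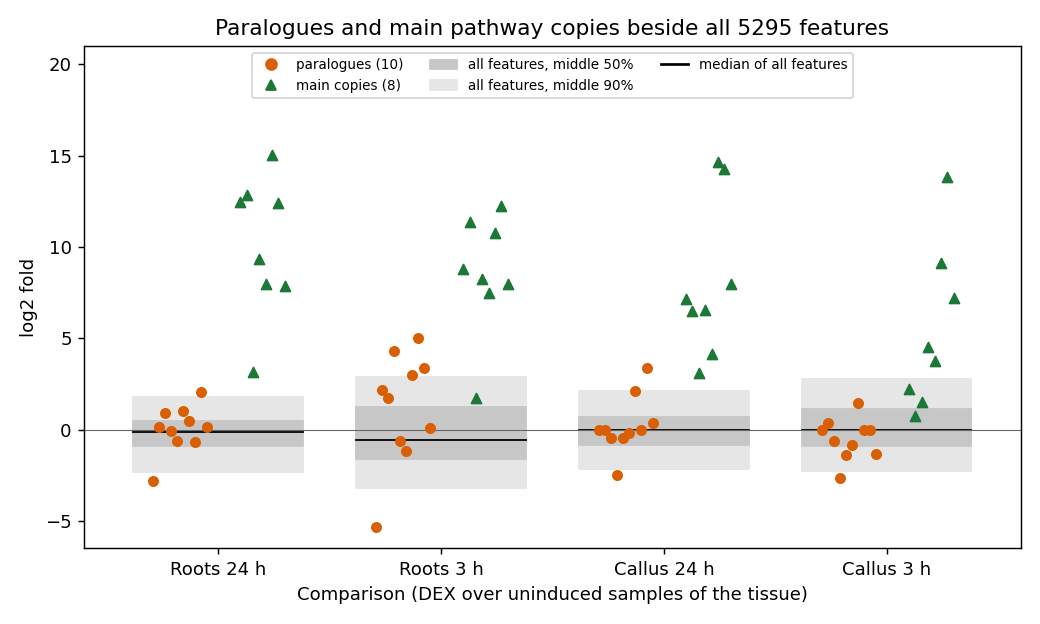
Log2 fold of the 10 paralogues (orange circles) and 8 main copies (green triangles) in each comparison, over the middle 90% (light grey) and middle 50% (dark grey) of all 5295 features, with their median as a black line. The median of the paralogues is 1.96 in roots at 3 h and between -0.30 and 0.12 in the other comparisons, while the main copies have medians from 4.12 to 10.86.

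Likeness was measured as the Euclidean distance between 2 features over their 4 log2 folds, where 0 means identical folds. Outside the 10, the nearest feature to Solyc10g076670 was its neighbour Solyc10g076680 at a distance of 0.65, and next came a late embryo abundance protein (Solyc02g077970) at 0.67. Nearest to Solyc10g076660 was Solyc12g100170, another gene of the oxoglutarate-dependent oxygenases, at 0.80. Solyc10g085190 had no close partner, with a cytochrome P450 (Solyc09g066150) at 1.1 and a bHLH transcription factor (Solyc03g044460) at 1.26. Nor had Solyc06g073080, whose nearest features were LOB domain protein 1 (Solyc06g075330) at 2.17 and an acyl-protein thioesterase (Solyc12g042890) at 2.28.

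The other members had partners of many kinds. Solyc05g053170 lay 0.06 from a receptor-like kinase (Solyc03g059080) and 0.35 from an extensin-like cell wall protein (Solyc02g030220). Solyc08g061480 lay 0.13 from a protein phosphatase 2C (Solyc05g052980) and 0.31 from a glycerophosphoryl diester phosphodiesterase family protein (Solyc06g069470). Solyc03g080190 lay 0.41 from a receptor-like kinase (Solyc06g063150) and 0.53 from a disease resistance protein-like gene (Solyc01g006320). Solyc09g066310 lay 0.12 from a glucosyltransferase (Solyc05g052870) and 0.22 from auxin response factor 3 (Solyc09g007810).

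Solyc04g015590 lay 0.36 from pyruvate phosphate dikinase (Solyc01g080460) and 0.37 from glucose-1-phosphate adenylyltransferase (Solyc01g079790), an enzyme of starch synthesis. Solyc08g006770 lay 0.28 from a cleavage and polyadenylation factor subunit (Solyc01g009630) and 0.30 from a WD-40 repeat protein (Solyc05g006340). For each of the 10 the nearest main copy was CHI, at distances from 2.48 for Solyc10g085190 to 9.86 for Solyc05g053170. Among the paralogues themselves the closest pair was Solyc09g066310 and Solyc08g006770, at 1.34, and then Solyc08g061480 and Solyc03g080190, at 1.38. Neither pair shares a described enzyme.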

How the data were processed

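The authors' deposited table gives each fold change as CLC bio output, per the file headers. It is a signed score, in which a reduction is written below 0. The same deposited values are also given as a linear ratio and as the log10 of that ratio. The submitters' processing notes name CASAVA 1.8.1. For alignment, counting, normalization and genome build the tools and settings are not stated in any source used here. Both deposited files, 2 in all, differ by at most 0 in their signed folds.

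Log2 folds were computed from the signed folds with Python 3.11.15, numpy 2.4.6 and pandas 2.3.3, drawn with matplotlib 3.10.9, and the counting and distance steps were checked on simulated data. A gene was counted at a fold of 2 or more. The planned tests over the 18 libraries, leaving out of replicates and promoter motifs were not run, since no values per library or sequences were analysed here. With no counts, depth and precision are unknown. Labels do not say whether the 3 replicates of a group were separate cultures or plants.

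The members and lists were chosen with earlier results of these data known. Named genes are all 10 members, every main pathway copy in the table, the 2 nearest features to each member by distance over 4 log2 folds, and, of the other features with a flavonoid word in their description, the 3 with the largest folds. Neighbours up to 20 in identifier number and Solyc06g083910 were added after the values were seen. The supplied RefSeq gene table matched 0 of the 10 identifiers. Alternatives were fold limits of 4 and 1.5, centring of each column on its median, leaving out of members at exactly 1 or with repeated folds, and, added later, Solyc06g083910 as a member.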

Additional observations from a re-analysis of the deposited data

How the results depend on the processing

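No paired analysis was possible because the table holds 1 fold per comparison and no values per library, and no replicate could be left out for the same reason. Of 72 counts under the alternatives, 55 stayed within 1.5 times the reported count and 17 did not, and centring turned the sign of 0 of the folds past 2-fold. Each count is followed by the share of all features under the same setting. With a limit of 4-fold the counts were 1 higher in roots at 24 h (4.34%), 1 lower in roots at 3 h (17%), in callus at 3 h 1 lower (6.63%) and 0 higher (10.6%), and 1 higher at 24 h than at 3 h in callus (6.86%). For root over callus they were 1 higher (5.02%) and 1 lower (7.14%) at 24 h and 4 higher at 3 h (7.42%). At 1.5-fold they were 3 lower in roots at 24 h (34%), 5 lower in callus at 3 h (33.3%) and 5 higher at 24 h than at 3 h in callus (22.7%). With columns centred, 1 was lower in roots at 3 h (25.4%). Without the members at exactly 1 or with repeated folds, which leaves 7 in callus, 1 was higher in callus at 24 h (18%), 1 was higher at 24 h than at 3 h in callus (15%), and for root over callus 1 was lower at 24 h (18.2%) and 0 were lower at 3 h (33.8%). With Solyc06g083910 as a member, 2 of 11 were lower in roots at 24 h (21.9%). The changed limit, scale or member list accounts for these counts by construction. The number higher in roots at 3 h was 5 at a 4-fold limit (11.4%), 6 at 1.5-fold (36.4%), 6 with columns centred (38.4%) and 6 under the remaining alternatives (31.3%).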

Other observations

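The oxygenase family offers a wider view of the same domain. Beyond 6 paralogues and 2 main copies, 53 other features carry the oxoglutarate and iron-dependent oxygenase domain. In roots at 3 h 4 of the 6 paralogues with the domain were at least 2-fold higher and 0 lower, while 16 of the 53 were higher and 25 lower. The 16 are 30.2% of the 53, beside 31.3% of all features, while 44.6% of all features were lower. In roots at 24 h 1 of the 6 was higher and 0 lower, and 7 of the 53 were higher and 12 lower. Of all features 11.7% were higher there and 21.9% lower. In callus at 24 h the numbers were 2 and 1 of the 6 and 10 and 13 of the 53, beside 18% and 21.5% of all features. In callus at 3 h they were 1 and 3 of the 6 and 15 and 14 of the 53, beside 27.8% and 23.4%.

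Apart from Solyc06g083910, 3 other features have a flavonoid word in their description, all of them described as glucosyltransferases of anthocyanidins or related flavonoids. Which sugar each attaches, and to what, was not tested. Solyc09g059170 stood 1043-fold and 581-fold higher in roots at 24 h and 3 h, and 582-fold and 149-fold higher in callus, in the authors' deposited table. Solyc10g083440 stood 532-fold and 685-fold higher in roots and 437-fold and 574-fold higher in callus at these times in the authors' deposited table. Solyc04g079030 went the other way, at 1.20-fold and 2.36-fold lower in roots and 16.1-fold and 7.03-fold lower in callus, in the authors' deposited table.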
